A study of Mus musculus with 27 samples.

Results

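The genes described here encode the enzymes of glutathione and thioredoxin chemistry together with the regulator pair NRF2 and KEAP1. A list of 49 gene symbols was applied to the arrays, and 43 of these genes had a probeset of their own whose log2 values averaged at least 6 over the 27 arrays, out of 13989 genes measured at that level. Where a gene had several such probesets, the one with the highest mean was used. Gsto2 (mean 5.68), Mgst1 (4.38) and Mgst2 (5.90) lay below the limit. Gstp2 was covered only by probesets shared with Gstp1, and no probeset named here stood for Prdx5 or Prdx6. The members just above the limit were Gstm6 (6.03) and Gstt1 (6.11). Both reached it only through the WD44 arrays, and over the other 23 arrays their means were 5.68 and 5.75.

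The cells were mouse embryonic stem (ES) cells, grown with leukemia inhibitory factor on mouse embryonic fibroblast feeders and freed of feeders on gelatin before RNAi, in control and knockdown groups alike. The PGK12.1 line is female, derived by crossing a 129 dam with a (129 X PGK)F1 sire. WD44 (BL6) and E14 (a Cast/BL6 hybrid) are male lines. Cells received 100 pmol of small interfering RNA (siRNA) for 48 h, and each control received a negative control siRNA. MOF (gene symbol Kat8) is a histone H4 acetyltransferase found in the MSL and NSL complexes, and MSL1 holds the MSL complex together. PGK12.1 was treated against MOF in experiments 1 to 3, against MSL1 in experiments A to C, against NSL1 in experiments C to E, and against MOF and MSL1 together in experiments D and E. In experiments 1 and 2, controls and knockdowns were transfected again, with 400 pmol for 24 h. Cells of the double knockdown received 50 pmol of Msl1 siRNA besides. WD44 and E14 were each treated against MOF in 2 experiments. Every experiment had 1 control array, which the MSL1 and NSL1 arrays share in experiment C and the NSL1 and double-knockdown arrays share in experiments D and E. The labels describe separate RNAi treatments of 1 line, and the p-values measure the spread between such treatments, pooled over the 3 lines in 1 fit. WD44 and E14, with 2 experiments each, thus borrow most of their spread from PGK12.1.

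Glutathione is a small thiol made in sequence by glutamate-cysteine ligase (Gclc and Gclm) and glutathione synthetase (Gss), and glutathione reductase (Gsr) returns its oxidized form to use. Glutathione transferases join it to reactive compounds, glutathione peroxidases use it to reduce peroxides, and peroxiredoxins do the same with electrons from thioredoxin. The transcription factor NRF2 (Nfe2l2) is held down by KEAP1 and, when released, binds antioxidant response elements of target genes such as Nqo1, Gclc, Gclm and Txnrd1. In ES cells these systems are known for keeping reactive oxygen species low.

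RefSeq promoter windows (GRCm38.p6, 250 bases before to 50 after the annotated start) existed for 38 of the 43 members. The letters TGACNNNGC, the core of the antioxidant response element, were searched on both strands, and 9 of the 38 members (23.7%) held them in at least 1 window, against 14.0% of 27025 genes. These members were Gclm, Gsta3, Gstm5, Gstm7, Nfe2l2, Prdx1, Sod1, Srxn1 and Txnrd1. Counted by window, the shares were 18.0% of 50 member windows and 12.4% of all 32851. The median share of G and C was 57.7% in member windows and 52.7% in all. A match is only a run of letters, and no test of these shares was made. The 250 bases before the start are given, 5′ to 3′, for Gstm5 and Gstm4, the mu-class transferases that fell most often, for their neighbour Gstm1, which did not pass the test anywhere, for As3mt, which fell as far as Gstm5, and for Nfe2l2 and Gclm, which rose on the arrays labelled NSL1. Capitals mark the searched letters. The windows lie at chr3:107895604-107895853 (plus strand) for Gstm5, chr3:108044860-108045109 (minus) for Gstm4 and chr3:108017974-108018223 (minus) for Gstm1. That of As3mt lies at chr19:46707208-46707457 (plus), of Nfe2l2 at chr2:75704664-75704913 (minus) and of Gclm at chr3:122245307-122245556 (plus).
Gstm5: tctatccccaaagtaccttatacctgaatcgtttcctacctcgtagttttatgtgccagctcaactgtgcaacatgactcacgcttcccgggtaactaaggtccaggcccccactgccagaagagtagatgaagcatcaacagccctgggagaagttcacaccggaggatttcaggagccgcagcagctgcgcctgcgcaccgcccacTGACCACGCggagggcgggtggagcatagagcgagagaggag
Gstm4: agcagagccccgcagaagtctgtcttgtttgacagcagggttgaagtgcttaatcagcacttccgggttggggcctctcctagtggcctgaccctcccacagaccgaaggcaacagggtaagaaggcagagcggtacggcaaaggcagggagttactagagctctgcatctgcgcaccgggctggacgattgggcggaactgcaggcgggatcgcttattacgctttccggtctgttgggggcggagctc
Gstm1: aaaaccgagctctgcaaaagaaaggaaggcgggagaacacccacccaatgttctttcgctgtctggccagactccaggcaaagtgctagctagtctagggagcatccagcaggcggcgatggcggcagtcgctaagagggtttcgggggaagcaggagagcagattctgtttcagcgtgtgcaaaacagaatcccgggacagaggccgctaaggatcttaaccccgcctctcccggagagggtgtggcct
As3mt: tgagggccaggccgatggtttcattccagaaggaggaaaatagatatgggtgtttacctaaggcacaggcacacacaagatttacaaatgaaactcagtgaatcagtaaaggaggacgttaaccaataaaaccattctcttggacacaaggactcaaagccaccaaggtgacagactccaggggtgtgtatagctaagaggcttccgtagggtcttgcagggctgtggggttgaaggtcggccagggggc
Nfe2l2: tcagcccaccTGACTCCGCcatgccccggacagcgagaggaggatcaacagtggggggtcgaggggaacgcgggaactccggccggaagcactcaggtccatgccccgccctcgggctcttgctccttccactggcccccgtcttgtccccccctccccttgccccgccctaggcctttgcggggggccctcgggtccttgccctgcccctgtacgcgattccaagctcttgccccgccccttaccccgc
Gclm: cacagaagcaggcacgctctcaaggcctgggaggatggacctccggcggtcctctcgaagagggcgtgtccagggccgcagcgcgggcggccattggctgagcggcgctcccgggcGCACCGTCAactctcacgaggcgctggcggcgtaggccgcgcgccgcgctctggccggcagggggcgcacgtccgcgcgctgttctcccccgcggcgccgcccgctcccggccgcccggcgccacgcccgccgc
The match began 42 bases before the start in Gstm5, 134 bases before it in Gclm (on the opposite strand) and 240 bases before it in Nfe2l2. The windows of Gstm4, Gstm1 and As3mt held none.

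Kat8 fell to between 38.7% and 48.0% of its control in the 3 MOF experiments of PGK12.1, to 52.8% and 56.3% in the double knockdown, to 51.8% and 60.3% in WD44 and to 59.0% and 66.4% in E14. Msl1 fell to between 42.9% and 56.3% of control on the MSL1 arrays and to 71.2% and 74.8% in the double knockdown. The label NSL1 could stand for Kansl1 or for the kinetochore gene Nsl1. On the arrays labelled NSL1 the brighter Kansl1 probeset was lower by a log2 difference of -0.24, at 80.7%, 80.6% and 92.8% of control. In the double knockdown it stood at 105% and 115%. The other Kansl1 probeset was higher by 0.50 under the NSL1 label, and at 134% and 139% of control in the double knockdown. Nsl1 was higher by 0.16 under that label. The Kansl1 probesets thus disagreed and Nsl1 did not fall. The label stays unchecked, and every direction below is that of the arrays so labelled. Array medians stepped between sets of experiments, from 6.22 to 7.96, and the members' controls in experiments A to E lay a median of 0.79 (log2) above those in experiments 1 to 3. Levels are therefore compared only within an experiment. The 12 ES cell markers were all present, and their mean per array lay between 11.15 and 11.85. Of these, Nanog, Esrrb, Tdgf1 and Utf1 fell with MOF knockdown in PGK12.1 and Pou5f1, Tdgf1 and Utf1 on the arrays labelled NSL1, Utf1 rose with MSL1 knockdown, Klf2 and Tbx3 rose in WD44, and in E14 Pou5f1 rose and Sox2 fell. Among trophectoderm, primitive endoderm and fibroblast markers, Gata3, Eomes, Gata6 and Dab2 rose and Krt18, Tfap2c, Thy1 and Pdgfrb fell on the arrays labelled NSL1. Gata3 and Tfap2c rose with MOF knockdown in PGK12.1, Tfap2c in the double knockdown, Krt18 and Hand1 in WD44 and Acta2 in E14, while Dab2 fell in WD44 and Lama1 in E14. In the test given below, 9.78% of all probesets were higher and 14.5% lower for MOF in PGK12.1. The shares were 18.9% and 22.2% on the arrays labelled NSL1, 4.02% and 8.89% in WD44, and 4.12% and 5.19% in E14. In the double knockdown they were 3.46% and 3.4%, and with MSL1 knockdown 0.184% and 0.172%. The mean of the 8 trophectoderm markers was 0.09, 0.20 and 0.17 above control in the 3 MOF experiments of PGK12.1. With MOF knockdown it was 0.105 and 0.1925 above control in WD44, and 0.0862 and 0.015 in E14. It was 0.1278 and 0.03 above in the double knockdown, 0.04 to 0.0987 with MSL1 knockdown and 0.0004 to 0.045 on the arrays labelled NSL1. The part of these marker shifts in the redox results was not tested.

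In PGK12.1, MOF knockdown lowered the mu-class glutathione transferases Gstm2, Gstm4, Gstm5 and Gstm7 and As3mt, and raised Gpx2, Gss and Sod1. The arrays labelled NSL1 showed falls of these 4 transferases and of As3mt and rises of Gss and Gpx2, together with rises of Nfe2l2, Nqo1, Gclc, Gclm and Txnrd1. The last 4 are those that passed the test among 9 NRF2 target genes, where 41.1% of all probesets passed. Hmox1, Gsr, Srxn1, Txn1 and Prdx1 did not pass there. In a limma fit without the experiment as a block, Gclm and Txnrd1 did not pass either (adjusted p = 0.0839 and 0.167). After MSL1 knockdown alone no member passed the test. Changes are log2 differences, knockdown minus control, with their standard error (SE) from 1 limma fit over the 27 arrays with the experiment as a block, and a call means a p under 0.05 after Benjamini-Hochberg adjustment over 16283 probesets. With MOF knockdown in PGK12.1, 23 of 43 members were called, 10 higher and 13 lower, where 24.2% of all probesets were called (9.78% higher, 14.5% lower), and 21 of the 23 moved the same way in all 3 experiments. With the NSL1 label, 24 were called, 10 higher and 14 lower, against 41.1% of all probesets (18.9% higher, 22.2% lower), and 23 of them moved one way in all 3 experiments. The calls were made from these same experiments, so such agreement in direction is no separate support for them. Its share among all called probesets is not given here. In the double knockdown 6 were called (3 higher, 3 lower) against 6.87% of all probesets (3.46% higher, 3.4% lower). MOF knockdown called 6 members in WD44, all lower, against 12.9% of all probesets (4.02% higher, 8.89% lower), and 3 in E14 (2 higher, 1 lower) against 9.31% (4.12% higher, 5.19% lower). For MSL1 the limma count was 0 against 0.356% of all probesets (0.184% higher, 0.172% lower), with 4 members at an unadjusted p under 0.05, and array weights in limma gave 2.

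The median change over the 43 members was -0.02 for MOF in PGK12.1, -0.01 on the arrays labelled NSL1 and 0.01 for MSL1, beside medians over all probesets of 0.00, -0.01 and 0.00. The members thus moved in both directions, and the groups below differ in which way. A fit without the experiment as a block kept a term for each set (experiments 1 to 3, A to E, WD44 and E14) and for the second transfection. It thus left the differences between experiments of a set in the spread. There 10 members were called for MOF in PGK12.1 (5 higher, 5 lower), 17 on the arrays labelled NSL1, 8 in the double knockdown (2 higher, 6 lower), 1 in WD44 and 0 in E14. A separate fit of the WD44 and of the E14 arrays, with 2 pairs each, called 0 members in both. Centring each array on its median left 22 called for MOF in PGK12.1, of which 12 were higher, and gave 7 in WD44, of which 5 were higher, so the one-sided split in WD44 depends on the scaling. Of the 6 WD44 falls, those of Gstm4 and Gpx3 held on centring, and Gstm5, Gstt1, Gstz1 and Cat did not pass (adjusted p = 0.0556, 0.0699, 0.097 and 0.242). Quantile normalization called 11 there (3 higher) and cyclic loess 8 (2 higher). In E14 centring gave 4 higher and 1 lower. The shares of all probesets called in these other fits are not set beside the counts. The counts therefore do not show a change particular to the members. In PGK12.1, 1 or more of the other settings (scaling, weights, filter, trend, a random block or separate fits) ended the MOF calls of Gsta3, Gstk1, Gstm6, Gsto1, Gstt3, Gpx8, Hmox1 and Nfe2l2 (adjusted p 0.051 to 0.101). They also ended the NSL1-labelled calls of Gstz1, Prdx2 and Sod2 (0.0502 to 0.172 with the same probeset) and the double-knockdown calls of As3mt and Gstm5 (0.0506 to 0.0707).

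**Figure D1:**
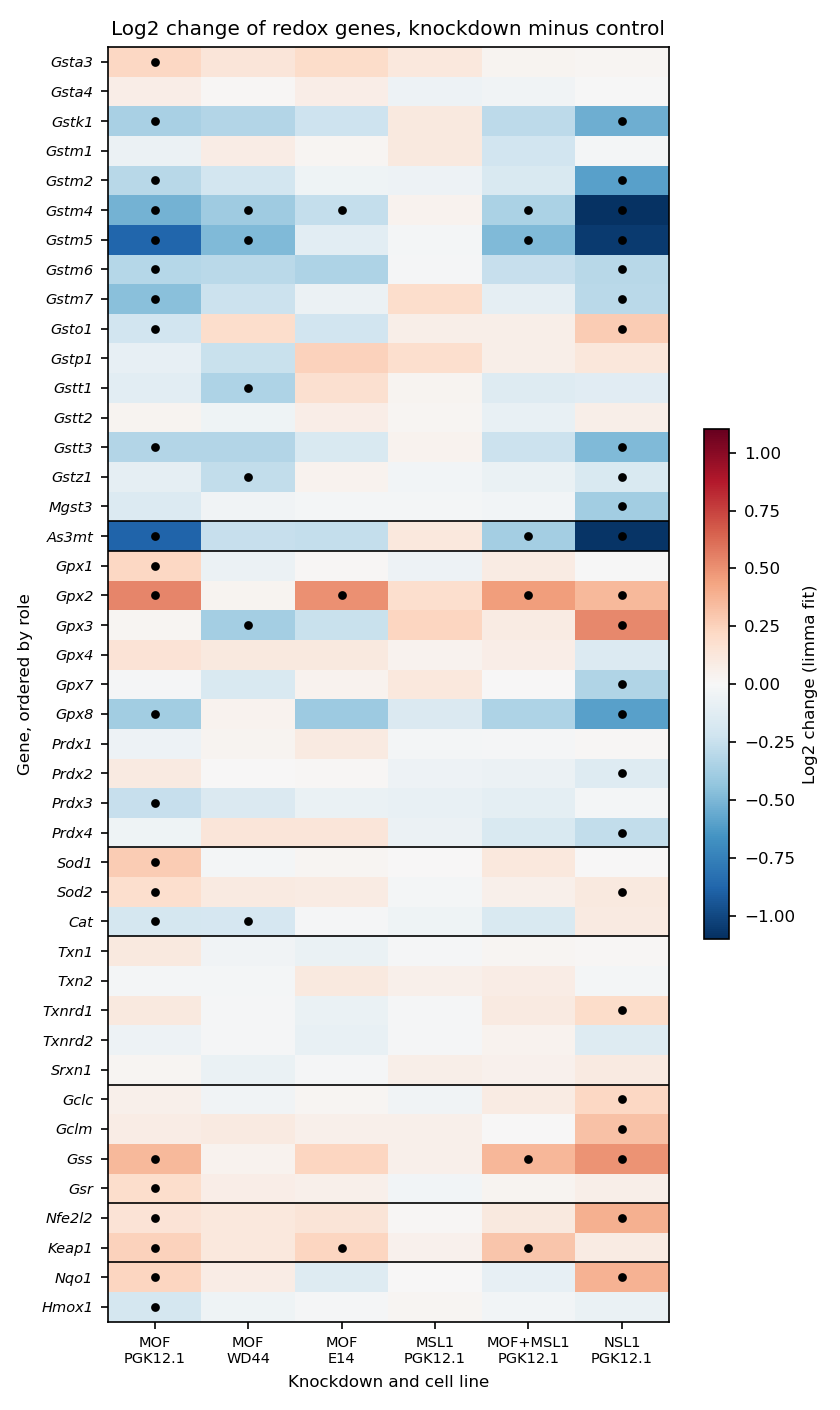
Log2 change of the 43 members (rows, grouped by role) after each knockdown (columns), from the limma fit; blue is lower and red higher than control, and a black dot marks an adjusted p under 0.05. The transferase rows and As3mt are mostly blue for MOF in PGK12.1 and for the arrays labelled NSL1, the rows for glutathione synthesis are red there, and the MSL1 column holds no dot.

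Falls outnumbered rises among the 16 transferases measured. For MOF in PGK12.1, 8 fell (Gstk1, Gstm2, Gstm4, Gstm5, Gstm6, Gstm7, Gsto1 and Gstt3) and only Gsta3 rose, with a median change of -0.18 over the list and 14.5% of all probesets lower. On the arrays labelled NSL1, 9 fell and Gsto1 rose, with a median of -0.23 and 22.2% of all probesets lower. Gstm4 and Gstm5 fell in the double knockdown, in WD44 Gstm4, Gstm5, Gstt1 and Gstz1, and in E14 Gstm4. These tallies and medians include Gstm6 and Gstt1, which passed the level limit only through the WD44 arrays. The Gstm6 controls of the MOF experiments in PGK12.1 lay at 4.46 to 5.64, below that limit. Falls still outnumbered rises without Gstm6, for MOF in PGK12.1 and on the arrays labelled NSL1. The Gstt1 controls in WD44 lay above the limit, at 8.23 and 8.44. Mu-class transferases lie side by side on chromosome 3, in the order Gstm5, Gstm7, Gstm6, Gstm3, Gstm2, Gstm1 and Gstm4 (Gstm3 is not among the members). Their sequences are alike, and how far their probesets share signal was not tested.

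Gstm5, the first gene of the row, stood at 6.09, 6.09 and 7.15 in the controls of experiments 1 to 3 and at 5.28, 5.39 and 6.05 after MOF knockdown. Each knockdown array lay below its own control by 0.70 to 1.10. The fitted change was -0.87 ± 0.12 (SE, 3 experiments; adjusted p = 3.38e-05), a 1.83-fold fall. Under the NSL1 label it went from 7.14, 7.01 and 6.86 to 6.36, 5.68 and 5.64, a change of -1.05 ± 0.11 (adjusted p = 5.77e-07), every knockdown array lying below every control. In the double knockdown it went from 7.01 to 6.51 and from 6.86 to 6.18 (-0.48 ± 0.14, adjusted p = 0.037). In WD44 it went from 8.72 to 8.04 and from 8.43 to 8.14 (-0.48 ± 0.14, adjusted p = 0.032). In E14 it changed by -0.12 ± 0.14 (adjusted p = 0.693), from 6.86 to 6.73 and from 6.90 to 6.80. Leaving out any 1 of the 4 arrays behind it ended the call in the double knockdown (adjusted p up to 0.367) and likewise in WD44 (up to 0.536). The Gstm5 values of 5.28 and 5.39 after MOF knockdown, and of 5.68 and 5.64 under the NSL1 label, lay below the level limit of 6.

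Gstm4, at the other end of the row, was the member called in the most comparisons, 5 of 6. In experiments 1 to 3 it went from 7.46, 7.41 and 8.24 to 6.95, 6.87 and 7.74. The 3 falls lay between 0.50 and 0.54, the closest agreement among the mu class (-0.52 ± 0.06, adjusted p = 4.18e-06). In experiments C to E, under the NSL1 label, it went from 9.57, 9.58 and 9.70 to 8.62, 8.44 and 8.50 (-1.08 ± 0.05, adjusted p = 1.1e-10), and the groups did not overlap. The double knockdown took it from 9.58 to 9.27 and from 9.70 to 9.23 (-0.35 ± 0.07, adjusted p = 0.00398). In WD44 it went from 10.01 to 9.63 and from 10.13 to 9.73 (-0.39 ± 0.07, adjusted p = 0.00192), and in E14 from 9.02 to 8.80 and from 9.23 to 8.93 (-0.26 ± 0.07, adjusted p = 0.0233). Its MSL1 change was 0.04 ± 0.05 (adjusted p = 0.919). The call in E14 was lost without any 1 of the 4 E14 arrays (adjusted p up to 0.255) and without the block (0.211), and that in the double knockdown without its array of experiment E (0.118).

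Gstm7 went from 6.44, 6.39 and 7.06 to 5.96, 6.05 and 6.49 after MOF knockdown in PGK12.1 (-0.46 ± 0.06, adjusted p = 5.21e-05), and from 7.48, 6.95 and 6.98 to 7.10, 6.72 and 6.69 on the arrays labelled NSL1 (-0.30 ± 0.06, adjusted p = 0.000684). Gstm2 went from 6.40, 6.45 and 7.83 to 6.11, 6.04 and 7.61 (-0.31 ± 0.07, adjusted p = 0.00363), and on the arrays labelled NSL1 from 9.52, 9.38 and 9.26 to 9.02, 8.72 and 8.66 (-0.60 ± 0.07, adjusted p = 1.2e-06). For Gstm2 the NSL1-labelled and control groups did not overlap, while in experiments 1 to 3 experiment 3 lay above both other experiments in control and knockdown alike. Gstm6, a member only through its WD44 level (control mean 8.17, against 4.93 in PGK12.1 experiments 1 to 3), changed by -0.31 ± 0.10 (adjusted p = 0.0312) and -0.30 ± 0.10 (adjusted p = 0.0172) in these comparisons. Its values went from 4.69, 4.46 and 5.64 to 4.37, 4.02 and 5.47, all below the limit, and from 6.12, 6.04 and 5.99 to 5.93, 5.64 and 5.69. Gstm1 changed by -0.06 ± 0.07 (adjusted p = 0.547) and -0.02 ± 0.07 (adjusted p = 0.83), its MOF experiments running from -0.35 to 0.18. Among these calls, that of Gstm2 after MOF knockdown was lost without either array of experiment 2 (adjusted p = 0.0552) and without the block (0.122). Gstm6 lost its call after MOF knockdown without either array of experiment 1 or 2 (up to 0.201), without the block (0.276), on centring (0.0697) and in the separate fit (0.099), and its NSL1-labelled call without control D, NSL1 D or NSL1 E (up to 0.111) and without the block (0.341).

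**Figure D2:**
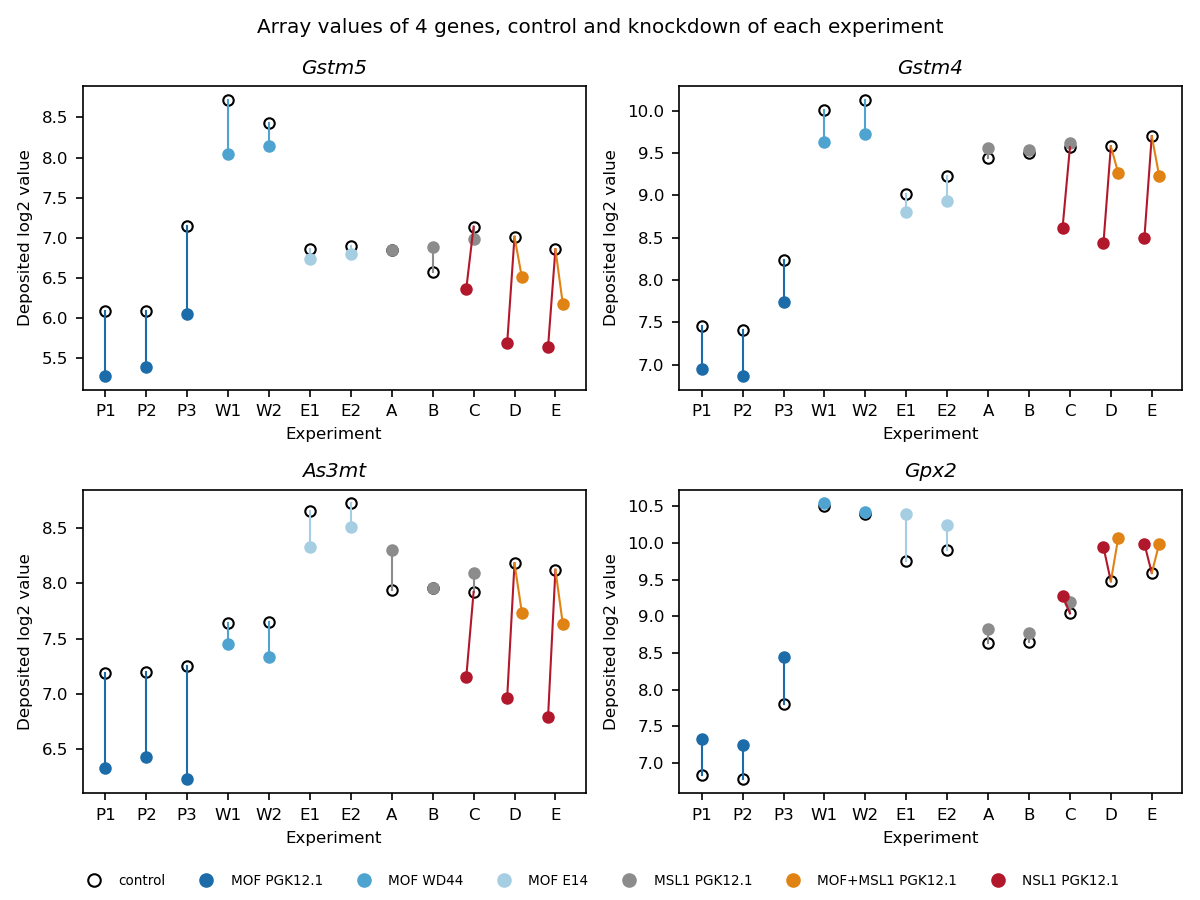
Deposited log2 values of Gstm5, Gstm4, As3mt and Gpx2 on the 27 arrays, with the control (open circle) joined to each knockdown (filled, coloured by target and line) of its experiment (P, W or E with a number for PGK12.1, WD44 or E14, and A to E for the lettered PGK12.1 experiments). Gstm5, Gstm4 and As3mt lie below their control after MOF knockdown and on the arrays labelled NSL1, Gpx2 lies above its control by 0.12 or more outside WD44 and by 0.03 in both WD44 pairs, and controls differ between experiments more than the knockdown moves them.

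Of the remaining transferases, the kappa-class Gstk1 changed by -0.36 ± 0.09 (adjusted p = 0.00877) after MOF knockdown in PGK12.1. Its values went from 6.08, 5.64 and 6.79 to 5.48, 5.69 and 6.26, so that experiment 2 was level. Of these, the control at 5.64 and the knockdown arrays at 5.48 and 5.69 lay below the level limit of 6. The NSL1-labelled experiments took Gstk1 from 7.35, 7.41 and 7.38 to 6.76, 6.86 and 6.85 (-0.54 ± 0.09, adjusted p = 9.03e-05), with no overlap. The theta-class Gstt3 went from 6.92, 6.77 and 6.94 to 6.49, 6.51 and 6.66 after MOF knockdown (-0.32 ± 0.11, adjusted p = 0.0327). On the arrays labelled NSL1 it was level in experiment C (7.14 and 7.14) and fell in D and E, from 6.67 and 6.73 to 5.99 and 5.89 (-0.49 ± 0.10, adjusted p = 0.000761). Mgst3, a microsomal family member, went there from 7.33, 7.03 and 7.05 to 7.08, 6.52 and 6.62 (-0.38 ± 0.07, adjusted p = 0.000107).

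Gsto1, an omega-class enzyme that also reduces methylated arsenic, was the member called in opposite directions in PGK12.1. It went from 7.54, 7.61 and 8.63 to 7.26, 7.41 and 8.47 after MOF knockdown (-0.21 ± 0.05, adjusted p = 0.00776), and from 9.62, 8.98 and 8.91 to 9.95, 9.26 and 9.13 on the arrays labelled NSL1 (0.28 ± 0.05, adjusted p = 0.000283). In WD44 its change was 0.20 ± 0.07 (adjusted p = 0.0616) and in E14 -0.21 ± 0.07 (adjusted p = 0.0559). Gstz1, an enzyme of tyrosine breakdown, changed in WD44 from 8.33 to 8.01 and from 8.20 to 7.98 (-0.27 ± 0.07, adjusted p = 0.0235), and on the arrays labelled NSL1 from 8.44, 8.37 and 8.25 to 8.23, 8.22 and 8.11 (-0.17 ± 0.06, adjusted p = 0.029). Gstt1 fell in WD44 from 8.23 to 7.90 and from 8.44 to 8.09 (-0.34 ± 0.09, adjusted p = 0.0207). The rise of the alpha-class Gsta3 after MOF knockdown was 0.23 ± 0.07 (adjusted p = 0.0157). Gsta4, Gstp1 and Gstt2 were not called in any of the 6 comparisons.

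Several of these calls rested on single arrays. After MOF knockdown in PGK12.1, Gstk1 lost its call without either array of experiment 1 or 3 (adjusted p up to 0.119), Gsta3 likewise (up to 0.129), Gstt3 without any 1 of the 6 arrays (up to 0.155) and Gsto1 without either array of experiment 1 (0.0651). Without the block Gsta3 (0.0999), Gstt3 (0.405) and Gsto1 (0.557) lost them too. On the arrays labelled NSL1, Gstz1 lost its call without control C, control D, NSL1 C or NSL1 E (up to 0.13) and without the block (0.171), and Gsto1 without the block (0.429). In WD44 the calls of Gstz1 and Gstt1 were lost without any 1 of the 4 arrays (up to 0.342 and 0.204) and without the block (0.218 and 0.232).

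**Figure D3:**
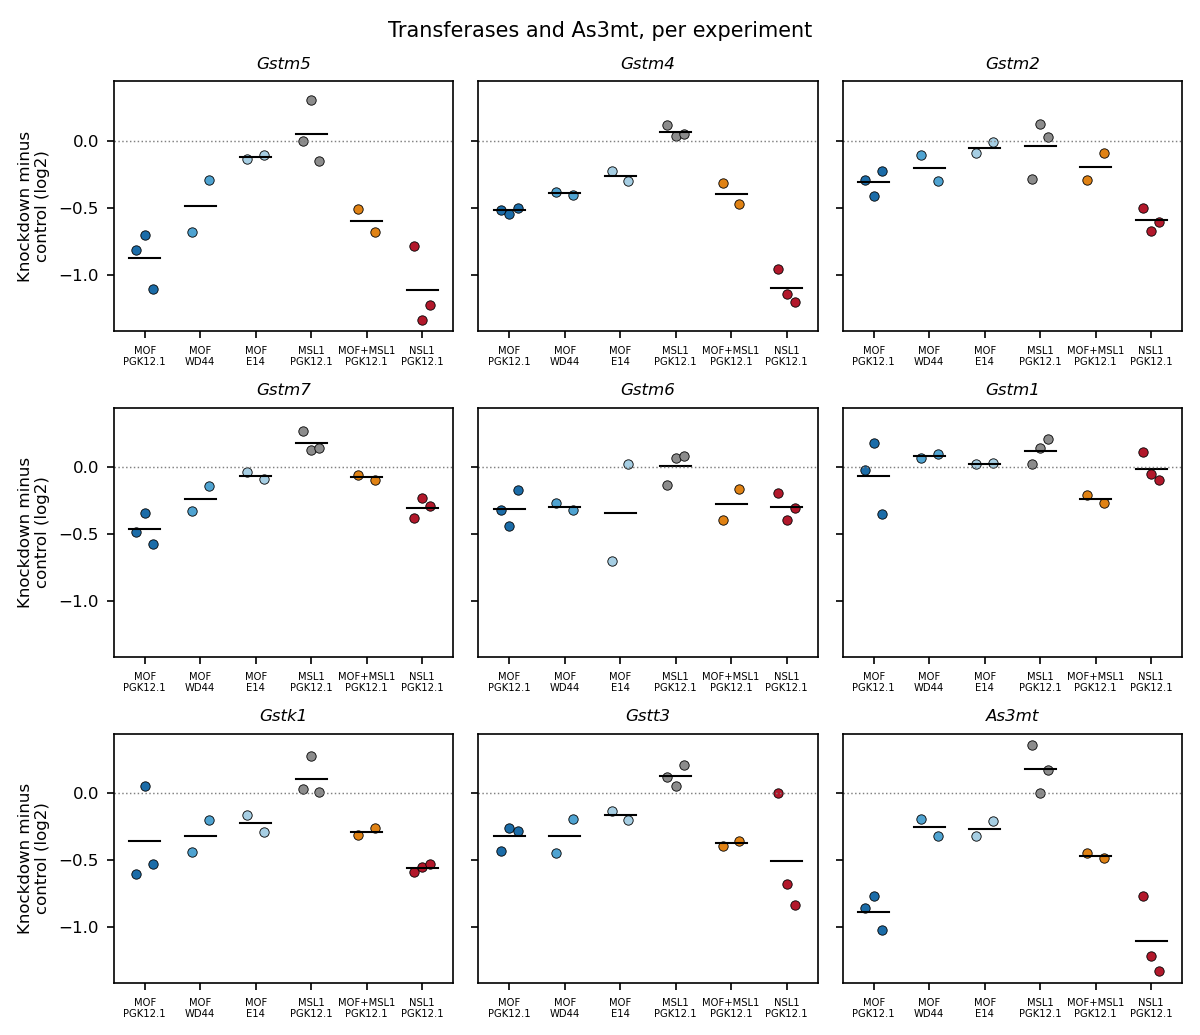
Log2 difference of each knockdown array from the control of its experiment (points) and the mean of these differences (horizontal lines) for 8 transferases and As3mt, by target and line. All panels share one axis; Gstm5, Gstm4 and As3mt reach the lowest values, the 3 experiments of the arrays labelled NSL1 are below 0 for all but Gstm1 and Gstt3, and Gstm1 scatters around 0.

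As3mt, the methyltransferase that methylates arsenic with S-adenosylmethionine, had the lowest fitted value of the 43 members for MOF in PGK12.1, close to that of Gstm5. It went from 7.19, 7.20 and 7.25 to 6.33, 6.43 and 6.23. Its 3 controls lay close together, and all 3 knockdown arrays lay below all of them. The change was -0.88 ± 0.09 (adjusted p = 2.33e-06), a 1.84-fold fall. Under the NSL1 label it went from 7.92, 8.18 and 8.12 to 7.15, 6.96 and 6.79 (-1.08 ± 0.09, adjusted p = 2.06e-08), again with no overlap. In the double knockdown it went from 8.18 to 7.73 and from 8.12 to 7.63 (-0.37 ± 0.11, adjusted p = 0.0386), a call lost without any 1 of the 4 arrays of experiments D and E in that comparison (adjusted p up to 0.261). In WD44 it changed by -0.26 ± 0.11 (adjusted p = 0.128) and in E14 by -0.27 ± 0.11 (adjusted p = 0.145).

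The 10 peroxidases measured were split. For MOF in PGK12.1, 2 were higher and 2 lower, where 24.2% of all probesets were called (9.78% higher, 14.5% lower). On the arrays labelled NSL1, 2 were higher and 4 lower, where 41.1% were called (18.9% higher, 22.2% lower). Their median changes were 0.00 and -0.08. Gpx2, a glutathione peroxidase known from the gut lining, rose in 4 comparisons. After MOF knockdown in PGK12.1 it went from 6.84, 6.78 and 7.80 to 7.33, 7.25 and 8.44 (0.53 ± 0.06, adjusted p = 1.01e-05). In E14 it went from 9.75 to 10.40 and from 9.90 to 10.25 (0.50 ± 0.08, adjusted p = 0.000773). In the double knockdown it went from 9.48 to 10.07 and from 9.59 to 9.99 (0.46 ± 0.07, adjusted p = 0.00122). In experiments C to E, under the NSL1 label, it went from 9.04, 9.48 and 9.59 to 9.28, 9.94 and 9.99 (0.36 ± 0.06, adjusted p = 9.56e-05). Both WD44 pairs were level, from 10.51 to 10.54 and from 10.39 to 10.42 (0.03 ± 0.08, adjusted p = 0.835). Gpx2 lost its call in the double knockdown without the double-knockdown array of experiment D (adjusted p = 0.0753) and in E14 without either array of experiment 1 (0.122); without the block it lost that in E14 (0.464) and in PGK12.1 after MOF knockdown (0.109), and its value rose to 0.95 in the double knockdown and 0.66 on the arrays labelled NSL1.

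Gpx3, the secreted plasma form, was called with opposite signs in 2 comparisons. The NSL1-labelled experiments took it from 9.38, 8.52 and 8.40 to 9.79, 9.03 and 9.11 (0.53 ± 0.07, adjusted p = 4.16e-06), and in WD44 from 10.09 to 9.83 and from 10.18 to 9.69 (-0.38 ± 0.08, adjusted p = 0.00875). The WD44 call was lost without either array of experiment 2 (adjusted p = 0.178) and without the block (0.574), and the NSL1-labelled one without the block (0.158). Gpx8, a peroxidase of the endoplasmic reticulum, went from 6.94, 6.59 and 7.44 to 6.35, 6.60 and 6.87 after MOF knockdown (-0.38 ± 0.10, adjusted p = 0.0118), with experiment 2 level. Under the NSL1 label it went from 8.01, 7.96 and 7.92 to 7.57, 7.44 and 7.10 (-0.59 ± 0.10, adjusted p = 0.000103). Its MOF call was lost without either array of experiment 1 or 3 (up to 0.136) and without the block (0.0714).

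Gpx7, also of the endoplasmic reticulum, fell on the arrays labelled NSL1 from 7.50, 7.52 and 7.56 to 7.30, 7.17 and 7.11 (-0.33 ± 0.07, adjusted p = 0.000577). Prdx4, a peroxiredoxin of the same compartment, fell there from 10.44, 10.30 and 10.22 to 10.14, 10.01 and 9.91 (-0.27 ± 0.05, adjusted p = 0.000436). Gpx1, the abundant cytosolic form, rose after MOF knockdown in PGK12.1 (0.23 ± 0.05, adjusted p = 0.00272), by 0.32 and 0.33 in experiments 1 and 2 and by 0.04 in experiment 3. The mitochondrial Prdx3 fell (-0.26 ± 0.07, adjusted p = 0.011), most in experiment 2 (-0.47). Without either array of experiment 2 the calls of Gpx1 (adjusted p = 0.0547) and Prdx3 (0.206) were lost, and that of Prdx3 also without the block (0.0534). Prdx2 was called lower on the arrays labelled NSL1 (-0.14 ± 0.05, adjusted p = 0.0347), but its probesets disagreed: the other gave -0.03 ± 0.05 there (adjusted p = 0.729) and a rise of 0.21 ± 0.06 after MOF knockdown (adjusted p = 0.011). The Prdx2 call was also lost without control C, control D, NSL1 C or NSL1 E (up to 0.184) and without the block (0.597). Gpx4, the lipid peroxidase, and Prdx1 were not called in any comparison.

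The thioredoxin group hardly moved. Of its 5 genes, Txnrd1, the cytosolic thioredoxin reductase, rose on the arrays labelled NSL1 from 10.73, 10.77 and 10.75 to 10.88, 10.95 and 11.02 (0.20 ± 0.05, adjusted p = 0.00189), a call lost without the block (adjusted p = 0.167). No call was made for Txn1, Txn2, Txnrd2 or the sulfiredoxin Srxn1 in any of the 6 comparisons. Over the 5 genes the fitted changes lay between -0.06 and 0.10 for MOF in PGK12.1 and between -0.14 and 0.20 on the arrays labelled NSL1.

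Genes that supply glutathione moved upward where they moved. Gss, which adds glycine in the last step, went from 8.36, 8.51 and 9.41 to 8.67, 8.74 and 9.94 after MOF knockdown in PGK12.1 (0.36 ± 0.06, adjusted p = 0.000375). In experiments C to E, under the NSL1 label, it went from 10.71, 10.31 and 10.28 to 11.07, 10.91 and 10.79 (0.49 ± 0.06, adjusted p = 2.42e-06), with no overlap between groups. In the double knockdown it went from 10.31 to 10.76 and from 10.28 to 10.62 (0.36 ± 0.07, adjusted p = 0.00547). Gclc, the catalytic subunit of the first enzyme, rose on the arrays labelled NSL1 from 10.64, 10.47 and 10.49 to 10.82, 10.72 and 10.73 (0.23 ± 0.05, adjusted p = 0.000536). Its modifier subunit Gclm rose there from 11.27, 11.30 and 11.22 to 11.56, 11.61 and 11.64 (0.32 ± 0.05, adjusted p = 0.000114), and in both genes the 3 knockdown arrays lay above controls C to E, while controls A and B of Gclm stood at 11.61 and 11.65. After MOF knockdown in PGK12.1 they changed by 0.06 ± 0.05 (adjusted p = 0.427) and 0.08 ± 0.06 (adjusted p = 0.312), and there Gsr rose by 0.19 ± 0.04 (adjusted p = 0.00188). The Gss call in the double knockdown was lost without control D or either double-knockdown array (adjusted p up to 0.123) and without the block (0.265), and the Gclm call without the block (0.0839).

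Nfe2l2 went from 11.31, 11.15 and 11.11 to 11.60, 11.56 and 11.60 on the arrays labelled NSL1 (0.39 ± 0.04, adjusted p = 6.62e-07), all 3 knockdown arrays lying above all 3 controls. After MOF knockdown in PGK12.1 it went from 8.61, 8.69 and 9.47 to 8.82, 8.77 and 9.64 (0.15 ± 0.04, adjusted p = 0.0153), a call lost without either array of experiment 1 or 3 (adjusted p up to 0.105) and without the block (0.138). Keap1 went from 8.27, 8.14 and 8.39 to 8.46, 8.33 and 8.78 in those experiments (0.26 ± 0.06, adjusted p = 0.00322). It also rose in the double knockdown, from 8.61 to 9.02 and from 8.79 to 8.97 (0.30 ± 0.07, adjusted p = 0.0109), and in E14, from 8.30 to 8.53 and from 8.35 to 8.59 (0.23 ± 0.07, adjusted p = 0.0444). On the arrays labelled NSL1, Keap1 changed by 0.09 ± 0.06 (adjusted p = 0.23). The Keap1 calls were lost without either array of experiment 3 (0.0592) for MOF in PGK12.1, without control D or the double-knockdown array D (up to 0.307) in the double knockdown, and in E14 without any 1 of its 4 arrays or of 6 arrays of experiments A, C and D (up to 0.328); without the block all 3 were lost (0.0834, 0.212 and 0.437).

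Nqo1, a quinone reductase and a standard NRF2 target, went from 10.34, 10.49 and 10.52 to 10.64, 10.95 and 10.87 on the arrays labelled NSL1 (0.38 ± 0.05, adjusted p = 6.47e-06). After MOF knockdown in PGK12.1 it went from 8.48, 8.64 and 9.21 to 8.78, 8.87 and 9.39 (0.24 ± 0.05, adjusted p = 0.0026), a call lost without the block (adjusted p = 0.0889). Hmox1, the heme oxygenase target, changed by -0.19 ± 0.07 (adjusted p = 0.048) after MOF knockdown in PGK12.1, and leaving out any 1 of 19 of the 27 arrays, among them each of the 6 in that comparison, ended its call (up to 0.186), as did the fit without the block (0.295). Among 9 NRF2 target genes (Nqo1, Hmox1, Gclc, Gclm, Gsr, Txnrd1, Srxn1, Txn1 and Prdx1), 4 rose and none fell on the arrays labelled NSL1, with a median of 0.09, where 41.1% of all probesets were called (18.9% higher). For MOF in PGK12.1, 2 rose and 1 fell, with a median of 0.08, where 24.2% of all probesets were called (9.78% higher, 14.5% lower). In the other 4 comparisons none was called.

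Of the enzymes that act on superoxide and hydrogen peroxide directly, Sod1 rose after MOF knockdown in PGK12.1, from 11.37, 11.24 and 11.81 to 11.53, 11.55 and 12.17 (0.28 ± 0.04, adjusted p = 0.000126). The mitochondrial Sod2 went there from 10.91, 10.83 and 11.50 to 11.05, 11.04 and 11.71 (0.19 ± 0.04, adjusted p = 0.00232), and on the arrays labelled NSL1 from 12.48, 12.45 and 12.38 to 12.54, 12.55 and 12.55 (0.11 ± 0.04, adjusted p = 0.0342). Catalase (Cat) fell after MOF knockdown in PGK12.1, from 8.50, 8.60 and 9.61 to 8.33, 8.37 and 9.42 (-0.20 ± 0.05, adjusted p = 0.00499). In WD44 it went from 12.65 to 12.59 and from 12.73 to 12.42 (-0.18 ± 0.06, adjusted p = 0.0417). The NSL1-labelled call of Sod2 was lost without either array (control or NSL1) of experiment D or E (adjusted p up to 0.207). That of Cat in WD44 was lost without either WD44 array of experiment 2 or without control A, MSL1 A, control D or NSL1 D (up to 0.638), and without the block both Cat calls were lost (0.131 and 0.426).

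**Figure D4:**
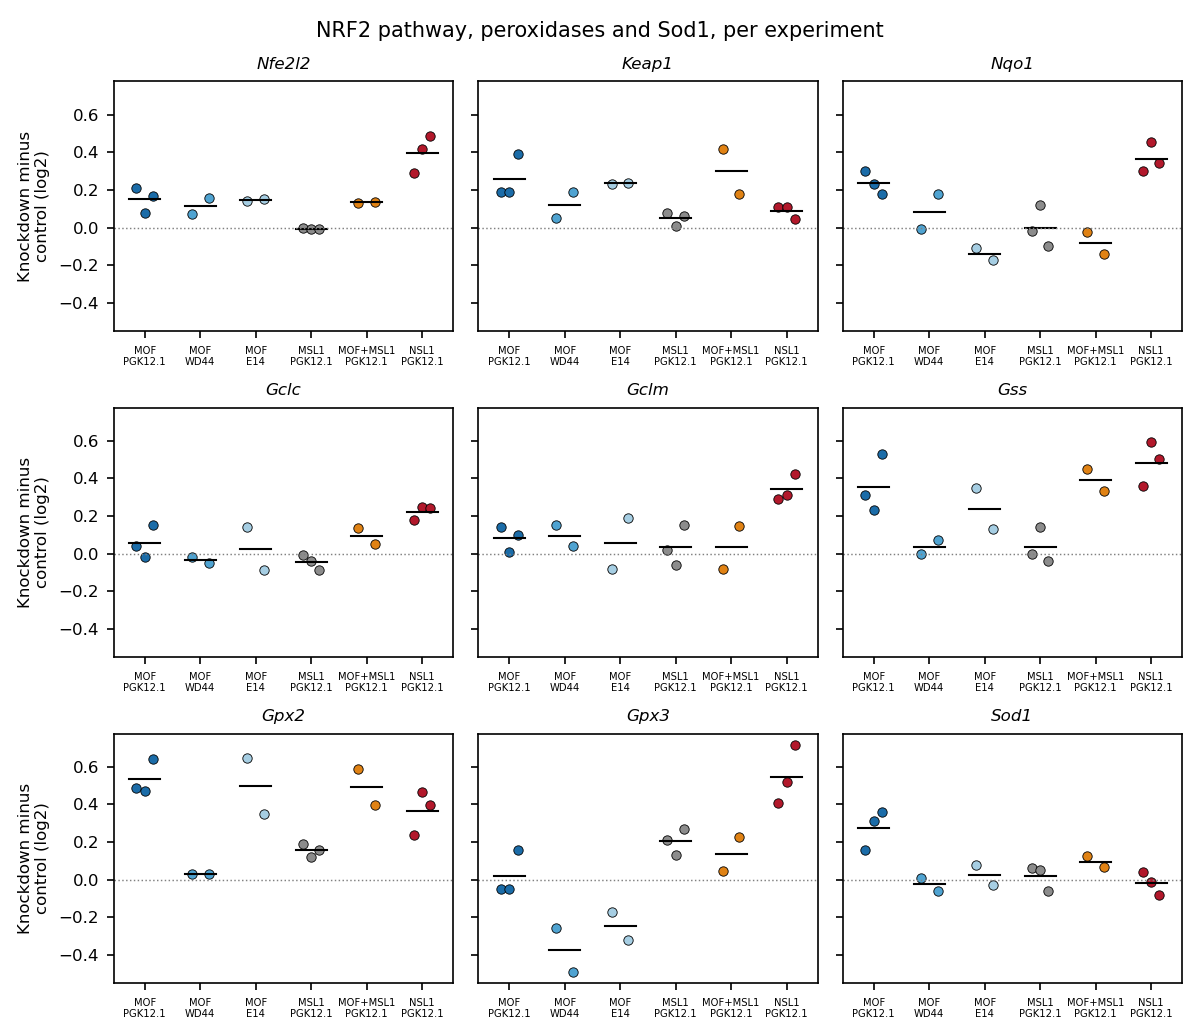
Log2 difference of each knockdown array from its control (points) and their mean (horizontal lines) for NRF2, KEAP1, Nqo1, the 3 genes of glutathione synthesis, Gpx2, Gpx3 and Sod1, on 1 shared axis. On the arrays labelled NSL1 every point of Nfe2l2, Nqo1, Gclc, Gclm, Gss and Gpx3 lies above 0, while Gpx2 is level in WD44.

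The 3 MOF experiments of PGK12.1 (1 to 3) and the NSL1-labelled experiments (C to E) share no array. Of the members called, 15 were called in both, which is 65.2% of those called for MOF and 62.5% of those called on the arrays labelled NSL1. Of the 15, 9 were lower in both, 5 were higher in both and Gsto1 was opposite. The 9 include Gstm6, whose values in the MOF experiments all lay below the level limit. Some values of Gstm5, Gstk1 and Gstm7 in those experiments lay below it too. Over all probesets the shares called in both were 63.4% and 37.4%, so the members called for MOF recurred at about the share of all probesets. All 6 members called in the double knockdown were also called, in the same direction, for MOF in PGK12.1 (26.1% of the latter's calls, against 67.3% and 19.0% over all probesets), namely Gstm4, Gstm5, As3mt, Gpx2, Gss and Keap1. Both Gstm4 and Gstm5 were lower in WD44 as well, as was Cat, and Gstm4, Gpx2 and Keap1 were called the same way in E14. In WD44 3 of 6 calls (50.0%) were among those for MOF in PGK12.1, against 45.3% over all probesets, and in E14 3 of 3 against 47.2%. No test of these overlaps was made.

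The response of several members to MOF knockdown differed between the lines when the difference itself was tested in the same fit. Between PGK12.1 and WD44, 4 members differed (2 higher, 2 lower), against 2.75% of all probesets (1.76% higher, 0.989% lower). As3mt fell further in PGK12.1 (difference -0.63 ± 0.14, adjusted p = 0.0231), and so did Gsto1, which was higher in WD44 (-0.41 ± 0.09, adjusted p = 0.016). Gpx2 (0.50 ± 0.10, adjusted p = 0.0106) and Sod1 (0.30 ± 0.07, adjusted p = 0.02) rose in PGK12.1 and were level in WD44. Between PGK12.1 and E14, 5 members differed (2 higher, 3 lower), against 3.51% (1.49% higher, 2.03% lower). There Gstm5 (-0.76 ± 0.18, adjusted p = 0.0301), Gstm7 (-0.40 ± 0.10, adjusted p = 0.0365) and As3mt (-0.62 ± 0.14, adjusted p = 0.0232) fell further in PGK12.1, while Nqo1 (0.38 ± 0.08, adjusted p = 0.0185) and Sod1 (0.25 ± 0.07, adjusted p = 0.0422) were higher. Between WD44 and E14, 3 members differed (1 higher, 2 lower), against 2.22% (0.657% higher, 1.56% lower): Gsto1 (0.41 ± 0.09, adjusted p = 0.0318), Gstt1 (-0.52 ± 0.13, adjusted p = 0.0395) and Gpx2 (-0.47 ± 0.11, adjusted p = 0.0305). For Gstt1 the WD44 controls averaged 8.34 and the E14 controls 5.77, below the level limit, so that difference sets a line where it was measured against one where it would not have been a member.

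The array values behind these differences follow. Gsto1 went in WD44 from 11.83 to 11.93 and from 11.65 to 11.94, and in E14 from 10.93 to 10.65 and from 10.94 to 10.80. As3mt went in WD44 from 7.64 to 7.45 and from 7.65 to 7.33, and in E14 from 8.65 to 8.33 and from 8.72 to 8.51. Each pair of As3mt thus moved down in every line, by less in WD44 and E14 than in PGK12.1, whereas the Gsto1 pairs moved up in WD44 and down in E14.

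All 12 of these line differences were lost without the block, where each count was 0. Each was also lost on leaving out single arrays, among which were 1 or more arrays of the 2-experiment lines in every case. The call between PGK12.1 and WD44 was lost for As3mt without either array of experiment 3 or any WD44 array (adjusted p up to 0.174) and for Gpx2 without any WD44 array (0.076). For Gsto1 it was lost without control 1 or either WD44 array of experiment 2 (0.152), and for Sod1 without the arrays of experiments 2 and 3 or any WD44 array (0.132), each taken singly. Between PGK12.1 and E14 any 1 of the 4 E14 arrays ended each call, as did those of experiment 3 for As3mt, Gstm5, Gstm7 and Sod1, with adjusted p up to 0.17 for As3mt, 0.22 for Gstm5, 0.291 for Gstm7, 0.16 for Nqo1 and 0.26 for Sod1. Arrays of experiment 1 for Gstm7 and of experiment 2 and 7 arrays of A, C, D and E for Sod1 ended them too. Between WD44 and E14 any WD44 array or an array of E14 experiment 1 ended the calls of Gsto1 (up to 0.332) and Gpx2 (up to 0.397), and 16 of the 27 arrays that of Gstt1 (up to 0.35). With all arrays kept, 1 or more of the settings of scaling, weights, filter, trend or a random block also ended line calls. They were those of Sod1 (adjusted p 0.0509 to 0.117), Gsto1 (0.125 and 0.186), Gpx2 (0.0502 to 0.252), Gstt1 (0.0529 and 0.0829) and Gstm7 (0.0508 to 0.104). Those of As3mt, Gstm5 and Nqo1 held under these settings.

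Line, sex, strain and the depth of the Kat8 knockdown cannot be told apart in the differences of PGK12.1 from WD44 or E14, nor line, strain and depth between WD44 and E14, both male. Of the PGK12.1 experiments, experiments 1 and 2 had 2 rounds of siRNA and experiment 3 had 1 round, like the other lines. Of the members differing from WD44 or E14, As3mt (-1.02), Gstm5 (-1.10), Gstm7 (-0.57), Gpx2 (0.64) and Sod1 (0.36) changed most in experiment 3. Nqo1 (0.18) and Gsto1 (-0.16) changed least there. The part of the rounds in the line differences was not tested. The 14 fibroblast markers, which would mark feeder cells, had a mean of 7.54 and 7.60 on the WD44 controls and of 7.75 and 7.76 on the WD44 knockdown arrays, against 5.57 to 6.25 on all arrays of PGK12.1 and E14. The array medians differed as well, at 7.89 to 7.96 on the WD44 arrays against 6.22 to 6.81 on the others. The gap of these markers between lines was not separated from that step. Of the 8 fibroblast markers that passed the level limit, 5 rose with MOF knockdown in WD44 (Col1a1, Col1a2, Col3a1, Col5a2 and Acta2), where 4.02% of all probesets were called higher. Their part in the WD44 values of the redox genes was not tested, and in such bulk samples fewer cells of a type and less RNA per cell cannot be told apart.

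**Figure D5:**
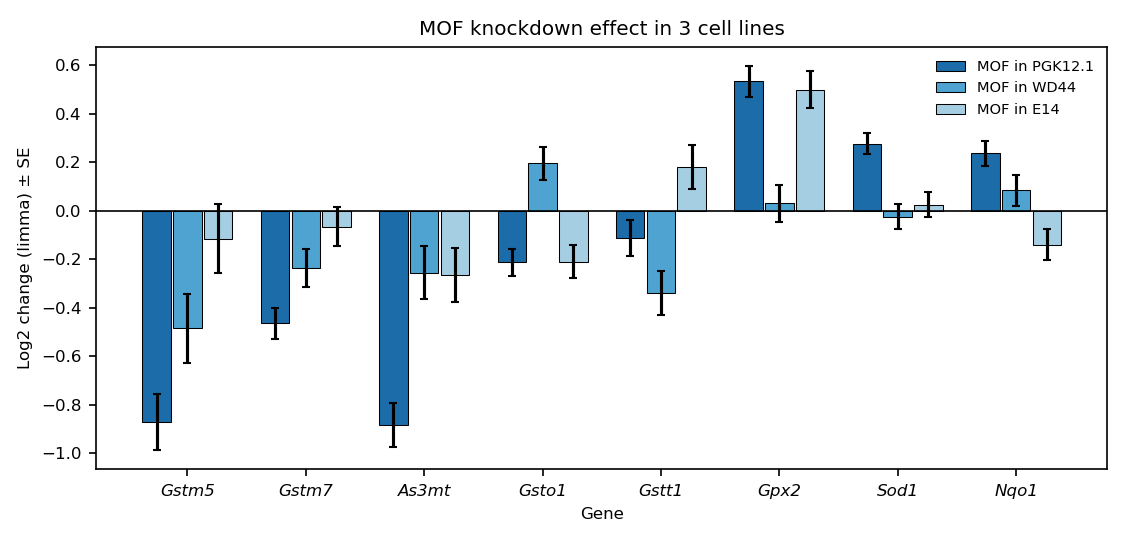
Log2 change with MOF knockdown (bars) and its standard error (lines) in PGK12.1 (3 experiments), WD44 (2) and E14 (2) for 8 members that were called in a test between lines. Gstm5, Gstm7 and As3mt reach lowest in PGK12.1, Gsto1 points up in WD44 and down in the other lines, and Gpx2 is near 0 in WD44 alone.

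Effects on the arrays labelled NSL1 differed from those of the double knockdown for 14 members (6 higher, 8 lower), against 27.7% of all probesets (11.9% higher, 15.8% lower), and from those of MSL1 knockdown for 19 (8 higher, 11 lower), against 34.0% (16.2% higher, 17.8% lower). These comparisons share control arrays. Lower than in the double knockdown were Gstm4 (difference -0.73 ± 0.07, adjusted p = 5.98e-07), As3mt (-0.71 ± 0.11, adjusted p = 7.92e-05), Gstm5 (-0.57 ± 0.14, adjusted p = 0.0041) and Gstm2 (-0.43 ± 0.08, adjusted p = 0.000801), followed by Mgst3, Gpx7, Gstm7 and Keap1. Nqo1 (0.47 ± 0.06, adjusted p = 2.03e-05), Gpx3 (0.44 ± 0.08, adjusted p = 0.000559), Gclm (0.31 ± 0.07, adjusted p = 0.0018) and Nfe2l2 (0.29 ± 0.05, adjusted p = 0.000418) were higher, as were Cat and Gsto1. Nqo1 went from 10.49 to 10.47 and from 10.52 to 10.38 in the double knockdown (-0.09 ± 0.06, adjusted p = 0.427), so its arrays moved on opposite sides of the same 2 controls. Nfe2l2 went there from 11.15 to 11.28 and from 11.11 to 11.25 (0.10 ± 0.05, adjusted p = 0.25).

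Against MSL1 knockdown, the largest differences of the arrays labelled NSL1 were in As3mt (-1.20 ± 0.11, adjusted p = 2.86e-07), Gstm4 (-1.12 ± 0.07, adjusted p = 3.7e-09) and Gstm5 (-1.03 ± 0.14, adjusted p = 2.11e-05). Gstm4 after MSL1 knockdown itself went from 9.44, 9.50 and 9.57 to 9.56, 9.54 and 9.62, and As3mt from 7.94, 7.96 and 7.92 to 8.30, 7.96 and 8.09. Gstk1, Gstm2, Gstm7, Gstt3, Mgst3, Gpx7, Gpx8 and Prdx4 were also lower, by -0.65 to -0.21. Gss (0.44 ± 0.08, adjusted p = 0.000181), Nfe2l2 (0.38 ± 0.05, adjusted p = 2.74e-05), Nqo1 (0.37 ± 0.06, adjusted p = 0.000165), Gclc, Gclm, Gpx3, Txnrd1 and Gsto1 were higher. The double knockdown differed from MSL1 knockdown in 1 member, Gstm4 (-0.39 ± 0.08, adjusted p = 0.0313), against 0.602% of all probesets (0.307% higher, 0.295% lower). Gstm4 lost that call without any 1 of the 10 arrays of experiments A to E other than those labelled NSL1 (adjusted p up to 0.274).

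Against the double knockdown, calls were lost without its array of experiment D for Cat (adjusted p = 0.0784), Gclm (0.105) and Mgst3 (0.0509), without that array or NSL1 E for Gpx7 (up to 0.0759), and without that array or NSL1 D for Gstm5 (up to 0.121). Keap1 lost its call without any of these 3 arrays (up to 0.453), Gsto1 without the double-knockdown array E or NSL1 E (up to 0.293), and Gstm7 without any 1 of 17 arrays (up to 0.24). Without the block, 7 members differed (5 higher, 2 lower): Gstm4, As3mt, Gpx3, Gclm, Nqo1, Cat and Nfe2l2. There the Gpx3 difference was 0.72. Centring the arrays gave 15, of which 8 were higher. Neither count has the share of all probesets called in the same fit beside it. Against MSL1 knockdown, the calls of Gpx8 (MSL1 C, 0.0633), Gsto1 (any of MSL1 A, MSL1 C, NSL1 C, control A and control D, up to 0.133) and Prdx4 (any of MSL1 A, MSL1 B, NSL1 E, control A, control B and control D, up to 0.0917) each ended without an array named. Without the block Gsto1 and Gpx3 turned to -0.12 and -0.18 (adjusted p = 0.56 and 0.467), and Gclc (0.0942), Gclm (0.617), Gss (0.111) and Txnrd1 (0.252) lost theirs. Calls kept there with a value more than 1.5 times larger or smaller were Gstm7 (-0.81), Gstt3 (-0.84), Mgst3 (-0.60), Prdx4 (-0.32) and Nfe2l2 (0.25).

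Beside the members, 50 further genes of these pathways were listed (cystine and glutamate transport, glutathione breakdown, NADPH supply, selenoprotein synthesis, epoxide and carbonyl detoxification and regulators of NRF2), and 46 of them were measured. For MOF in PGK12.1, 7 rose and 7 fell, where 24.2% of all probesets were called, and on the arrays labelled NSL1 15 rose and 15 fell, where 41.1% were. The double knockdown had 2 higher and 2 lower (6.87% of all probesets called), in WD44 1 rose and 5 fell (12.9%), in E14 2 rose and 3 fell (9.31%), and after MSL1 knockdown none was called (0.356%). The carbonyl reductase Cbr1 fell for MOF in PGK12.1 (-0.44 ± 0.06, adjusted p = 1.86e-05), on the arrays labelled NSL1 (-0.51 ± 0.05, adjusted p = 4.54e-07), in the double knockdown (-0.22 ± 0.06, adjusted p = 0.0486) and in WD44 (-0.34 ± 0.07, adjusted p = 0.00426). Ephx1, the microsomal epoxide hydrolase, rose for MOF in PGK12.1 (0.54 ± 0.06, adjusted p = 1.01e-05), in E14 (0.49 ± 0.08, adjusted p = 0.00109), in the double knockdown (0.34 ± 0.07, adjusted p = 0.0103) and on the arrays labelled NSL1 (0.30 ± 0.06, adjusted p = 0.000705). Esd, which completes the glutathione-dependent breakdown of formaldehyde, had the lowest value of the list on the arrays labelled NSL1 (-1.02 ± 0.07, adjusted p = 1.73e-09) and also fell for MOF in PGK12.1 (-0.35 ± 0.07, adjusted p = 0.000955) and in the double knockdown (-0.28 ± 0.08, adjusted p = 0.0377). Chac1, which cleaves glutathione, fell on the arrays labelled NSL1 by 0.52 (adjusted p = 3.12e-07). Its relative Chac2 fell in WD44 by 0.44 (adjusted p = 0.0218) and in E14 (-0.43 ± 0.12, adjusted p = 0.0304). Bach1, a repressor at NRF2 sites, rose for MOF in PGK12.1 (0.36 ± 0.06, adjusted p = 0.00021) and on the arrays labelled NSL1 (0.36 ± 0.06, adjusted p = 4.81e-05).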

How the data were processed

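Total RNA of 27 cultures, 1 array each, went onto mouse gene arrays from Affymetrix. The deposited values are log2 expression values, made by the authors with RMA in Affymetrix Expression Console, per the submitters' processing notes; versions and genome build are not given in the sources used here. Of 35556 probesets, 21789 named 1 gene, 1621 several and 12146 none in the platform annotation, and 21698 of the first matched RefSeq, which gave current symbols.

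Probesets with a mean of at least 6 and a gene symbol (16283) were fitted in limma 3.58.1 (R 4.3.3) with lmFit and eBayes with trend, in 1 fit over all arrays with the 12 experiments as blocks, 6 knockdown effects and 9 residual degrees of freedom. Changes are knockdown minus control. In experiments A to E, where controls are shared, a fitted change is not the plain mean of the experiments' differences. p-values were adjusted by Benjamini-Hochberg over all 16283 probesets. The labels give each experiment its own control, which is where the pairing comes from. The correlation of a knockdown array with its own control, as deviations from group means, was -0.00 to 0.87. Another experiment's control correlated more for MOF in PGK12.1 experiment 1 (0.678 against 0.667) and MSL1 A (0.467 against 0.456). The same held for MSL1 B (0.09 against -0.00) and NSL1 E (0.63 against 0.50). Members named with array values were those called in 2 or more comparisons, with a called change of at least 0.5, or called in a test between effects, and up to 4 of the other pathway genes by p. The script was tested on simulated data. Precision is limited by the number of arrays. No 2 arrays held identical values. The members, lists and tests were chosen with earlier results of these data known. Protein sequences were not used here, so identity between the mu-class enzymes was not computed.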

Additional observations from a re-analysis of the deposited data

Results flagged for a closer look

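Gstp1, the pi-class transferase, stood at 11.52 in control C, the highest of the 5 controls A to E, with the next at 11.22. Of 43 members examined in that group of 5 it was the only one to stand so far apart, and chance alone marks about 1 in 20.

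The remaining results are members whose response differed between lines or between knockdowns by limma's test of the difference, with Benjamini-Hochberg adjusted p under 0.05. For MOF knockdown in PGK12.1 minus WD44 the differences were -0.41 for Gsto1, 0.50 for Gpx2, 0.30 for Sod1 and -0.63 for As3mt. For PGK12.1 minus E14 they were -0.76 for Gstm5, -0.40 for Gstm7, 0.38 for Nqo1, 0.25 for Sod1 and -0.62 for As3mt. For WD44 minus E14 they were 0.41 for Gsto1, -0.52 for Gstt1 and -0.47 for Gpx2.

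For the arrays labelled NSL1 minus the double knockdown, transferases differed by -0.43 (Gstm2), -0.73 (Gstm4), -0.57 (Gstm5), -0.20 (Gstm7), 0.22 (Gsto1) and -0.35 (Mgst3). Peroxidases differed by 0.44 (Gpx3) and -0.33 (Gpx7), and As3mt by -0.71. Gclm differed by 0.31, Nqo1 by 0.47, Cat by 0.26, Nfe2l2 by 0.29 and Keap1 by -0.22. The double knockdown differed from MSL1 knockdown by -0.39 in Gstm4.

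For the arrays labelled NSL1 minus MSL1 knockdown, transferases differed by -0.65 (Gstk1), -0.55 (Gstm2), -1.12 (Gstm4), -1.03 (Gstm5), -0.49 (Gstm7), 0.21 (Gsto1), -0.53 (Gstt3) and -0.36 (Mgst3). Peroxidases differed by 0.29 (Gpx3), -0.45 (Gpx7), -0.44 (Gpx8) and -0.21 (Prdx4), and As3mt by -1.20. Genes of glutathione synthesis differed by 0.27 (Gclc), 0.26 (Gclm) and 0.44 (Gss), and Nqo1, Txnrd1 and Nfe2l2 by 0.37, 0.21 and 0.38.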

How the results depend on the processing

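Of 108 named calls, 53 held without the replicate block, 53 were lost and 2 reversed (Gsto1 to -0.12 and Gpx3 to -0.18, NSL1-labelled against MSL1); 94 to 104 held under the other alternatives that kept all arrays in 1 fit and all members. The other probeset could be tried only for the Prdx2 call, which was lost (-0.03). Of the calls that could be tried, 97 of 97 held at a mean of at least 7, and 77 of 96 in separate fits per set of arrays. The cause was not tested.

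Without the replicate block MOF knockdown had 10 members called in PGK12.1, 1 with WD44 cells and 0 with E14 cells, and there were 0 in each of the 3 tests between lines, 7 for NSL1-labelled against double knockdown and 18 for double against MSL1 knockdown. A random replicate block gave 10 in the double knockdown and 4 for double against MSL1. Centring gave 5 in E14, quantile normalization 11 in WD44 (3 higher, 8 lower), no filter 3 for PGK12.1 against E14, and a mean of at least 7 gave 6 in E14. Array weights gave 2 for MSL1, 12 for the double knockdown, 7 in E14 and 7 for double against MSL1. Separate fits gave 0 in WD44, in E14 and for double against MSL1, and there the falls of Kat8 in WD44 (-0.84) and E14 (-0.68) lost their calls. Cyclic loess gave 8 in WD44, 2 of them higher. These counts, and those below for arrays left out, stand without the share of all probesets called in the same fit. They therefore do not show a change particular to the members.

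Leaving out 1 array gave 16 to 23 members for MOF in PGK12.1, 0 to 0 for MSL1, 20 to 26 on the arrays labelled NSL1, 1 to 8 in the double knockdown, 3 to 8 in WD44 and 0 to 6 in E14. The tests between effects gave 0 to 5 (PGK12.1 against WD44), 0 to 5 (against E14), 0 to 4 (WD44 against E14), 8 to 16 (NSL1-labelled against double), 0 to 4 (double against MSL1) and 17 to 21 (NSL1-labelled against MSL1). Msl1 in the double knockdown stayed between -0.49 and -0.42 and lost its call without the double-knockdown array D.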
